A study of Sus scrofa with 12 samples.

Results

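Genes of DNA replication and cell division were followed across 4 states of porcine valvular interstitial cells, the fibroblast-like cells of the heart valve leaflet. The members were probe sets listed with 1 gene symbol from a set of cell cycle names (A, B, D and E cyclins, CDK, CDC, KIF, MCM, CENP, ORC, RFC, replicative polymerases and named single genes such as PCNA, TYMS and TOP2A). They also had to lie over log2 4 in at least 3 of the 12 arrays. Of 23999 probe sets in the table, 104 matched by name and 100 passed the level filter, which represent 75 genes. Names of the CDC42 and CDC37 kind were left out. Each gene is described by its member probe set with the highest mean over the 12 arrays.

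The untreated P2 cells were interstitial cells from adult pig aortic valves taken through 2 passages on plastic (TCPS) and kept in culture medium with 1% serum. The TGF-β1 cells were P2 cells handled alike and exposed to porcine TGF-β1 (5 ng/ml) over either 8 h or 24 h, and all P2 groups were collected on day 3 of culture. The P0 cells were taken straight after collagenase II digestion of the valve, with no culture and no treatment. Each of the 4 groups held 3 biological replicates, and the labels do not give the animals behind them. If replicates share an animal, the p-values measure only the spread between these samples, which may be technical.

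A dividing cell first loads the MCM helicase onto replication origins with the help of the ORC complex, then copies its DNA with polymerases held by the PCNA clamp while ribonucleotide reductase and thymidylate synthase supply nucleotides. In G2 and mitosis, B-type cyclins, Polo and Aurora kinases, kinetochore proteins and spindle motors condense and separate the chromosomes. Most interstitial cells of the healthy adult valve are quiescent, and they are known to re-enter the cycle in culture. TGF-β1 is a cytokine known to make these cells into contractile myofibroblasts, and it slows the proliferation of many cell types.

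The 75 genes were sorted by textbook role, with earlier results of these data known. The replication class held 24 genes (8 of origin licensing, 13 of origin firing and the fork, 3 of nucleotide supply) and the mitotic class 21 genes (7 kinases, cyclins or phosphatases, 7 of the centromere and kinetochore, 4 of the checkpoint and anaphase, 3 spindle motors and chromosome proteins). A class of 3 interphase genes held CCNA2, CCND2 and CDK2. The other 27 genes included 5 kinesins of transport or mixed roles, 7 transcriptional or atypical CDKs, 2 subunits of the anaphase-promoting complex, the stress-responsive kinases PLK2 and PLK3, and 11 further genes that match the names but were not placed in a replication or mitotic role. CDC5L, a splicing factor, CDK5RAP1, a tRNA-modifying enzyme, CENPB, a centromere-binding protein, and CDC34, a ubiquitin-conjugating enzyme, belong to that last group. CCND1, CCNE2, CDK1, CDK4, CDC6 and BUB1 had no member probe set with a single symbol and were not analysed here.

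The 4 matching probe sets that failed the filter belonged to PLK3, ORC4, MCM2 and TYMS, lay over log2 4 in 0 of 12 arrays and had means of 2.37, 2.71, 2.79 and 3.27. Each of these genes has another probe set among the members. Just inside the limit were second probe sets of MCM5, over log2 4 in 5 arrays with a mean of 4.04, and of CDC123 and PCLAF, each over log2 4 in 6 arrays with means of 3.996 and 3.77. A low limit reached in 3 arrays can be met by the cultured groups alone, and 4 of the 75 genes (RRM2, SKA1, CENPT and CCNA2) were over log2 4 in at most 1 P0 array. In 7 genes the P0 mean lay under 4.58, the 95th percentile of the 64 reporter control probe sets. Their folds are given as lower bounds from that level, while class and role medians and ranges use their fitted differences.

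Values are deposited log2 expression values (GCRMA), on which a step of 1 is a doubling. The 12 arrays had medians of 5.87 to 5.94, 16564 to 17247 probe sets over log2 4, and within-group correlations of 0.982 to 0.994. VIM, DCN and LUM, genes of fibroblasts and interstitial cells, averaged 15.6, 13.3 and 13.5 in untreated P2 cells and 15.6, 15.0 and 14.0 in P0 cells. Of 11 measured fibroblast and interstitial markers 1 rose and 7 fell in untreated P2 cells against P0 cells, with a median difference of -0.44, and the log2 of their summed level was 16.76 to 16.89 in untreated P2 cells and 17.40 to 17.45 in P0 cells. Over all probe sets tested, 33.6% were called higher and 25.8% lower in the same contrast. The part of these markers in the results was not tested. Differences were tested with limma on all 17638 probe sets that passed the filter, with Benjamini-Hochberg adjustment over all of them and a call at an adjusted p under 0.05. Errors of log2 differences are standard errors of that fit, with 3 arrays in each group.

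Untreated P2 cells had far more transcript of most replication and mitotic genes than P0 cells. Among the 24 replication genes 15 were called higher and 3 lower, and their median difference was 1.51 on the log2 scale (range -0.62 to 6.77). Of the 21 mitotic genes 20 rose and 0 fell, with a median of 3.06 (range -0.27 to 5.36), and 20 passed at an unadjusted p under 0.05. Over all probe sets tested, 33.6% were called higher and 25.8% lower in P2 cells, 63.1% had an unadjusted p under 0.05, and the median difference was 0.07. Among the 100 member probe sets the count was 67 called higher and 14 lower. RRM2, SKA1 and CENPT passed the level filter through the cultured groups. Without these genes, 14 of 23 replication and 18 of 19 mitotic genes were called higher. In these bulk samples, fewer cells of a type and less RNA per cell cannot be told apart.

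Nucleotide supply held 3 genes and all of them rose. RRM2, the small subunit of ribonucleotide reductase, made while DNA is copied, read 10.76, 10.61 and 10.63 in untreated P2 cells, against 3.37, 3.86 and 4.46 in P0 cells. Each P2 array stood far above the P0 arrays, which lay at the level of the reporter controls, so the rise was at least 67.7-fold. RRM2 passed the level filter through the cultured groups, so its call is not independent of that filter. TYMS, thymidylate synthase, read 10.20, 9.66 and 10.45 in untreated P2 cells, against 7.12, 7.16 and 7.22 in P0 cells (difference 2.94 ± 0.232, 7.67-fold, adjusted p = 5.36e-07). RRM1, the large reductase subunit, read 11.06, 10.85 and 10.97 in untreated P2 cells, against 9.32, 9.25 and 9.44 in P0 cells (1.62 ± 0.109). The P2 and P0 arrays did not overlap in any of these 3 genes, as was the case with P2 higher for 36.8% of all probe sets tested.

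Of the 8 origin licensing genes 5 rose, with a median difference of 1.97. MCM2, MCM3 and MCM5, subunits of the replicative helicase, differed by 2.96 ± 0.259, 2.41 ± 0.203 and 2.42 ± 0.243. MCM3 read 7.38, 7.04 and 7.63 in untreated P2 cells and 5.19, 4.65 and 4.99 in P0 cells, without overlap. MCM5 read 8.96, 9.07 and 9.18 in untreated P2 cells and 6.91, 6.07 and 6.99 in P0 cells. ORC1, the origin recognition subunit whose amount changes over the cycle in mammalian cells, differed by 2.41 ± 0.262, and ORC3 by 1.53 ± 0.148.

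ORC4, a core subunit of origin recognition, went the other way. Its values were 9.80, 9.77 and 9.61 in untreated P2 cells and 10.15, 10.14 and 10.06 in P0 cells (-0.39 ± 0.104, adjusted p = 0.00662), and its second probe set differed by -1.04, also called. ORC6 (-0.03, adjusted p = 0.901) and MCM4 (0.06, adjusted p = 0.718) did not pass. The MCM4 probe sets disagreed, since the dimmer one differed by 2.10 and was called higher. A dimmer MCM2 probe set differed by 0.08 and was not called.

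Of the 13 genes of origin firing and the fork 7 rose and 2 fell, with a median of 0.62 and a range of -0.62 to 6.001. PCLAF, a PCNA-associated factor, read 11.25, 11.12 and 11.59 in untreated P2 cells, against 5.49, 5.10 and 5.38 in P0 cells (6.001 ± 0.176, 64-fold, adjusted p = 2.66e-10). Its dimmer probe set differed by only 1.12, also called. PCNA itself, the sliding clamp, read 10.96, 10.72 and 10.96 in untreated P2 cells, against 10.07, 10.47 and 10.22 in P0 cells (0.63 ± 0.203, 1.55-fold, adjusted p = 0.0178). Both groups of PCNA values were high and close to each other, and the call was lost without P0 replicate 1 or untreated replicate 1 or 3 (adjusted p up to 0.0678). CDC45, a helicase cofactor, RFC3 and RFC5, subunits of the clamp loader, and POLE2, a subunit of polymerase epsilon, rose by 1.96 ± 0.200, 2.08 ± 0.178, 1.49 ± 0.135 and at least 4.11-fold, while POLA2 rose by 0.62 ± 0.149.

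The fallen fork genes were POLE3, a histone-fold subunit of polymerase epsilon, and POLD3, a subunit of polymerase delta. POLE3 read 9.31, 9.16 and 9.22 in untreated P2 cells and 9.82, 9.94 and 9.79 in P0 cells (-0.62 ± 0.123, adjusted p = 0.000842). POLD3 read 8.24, 8.36 and 8.19 in untreated P2 cells and 8.57, 8.57 and 8.78 in P0 cells (-0.38 ± 0.117, adjusted p = 0.0145), and its dimmer probe set differed by -0.09 without a call. The call of POLD3 was lost without P0 replicate 3 or untreated replicate 3 (adjusted p up to 0.0586). POLD2, POLD4, POLE4 and RFC1, all polymerase or clamp loader subunits, differed by 0.12, 0.27, -0.08 and 0.12 and did not pass.

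**Figure D1:**
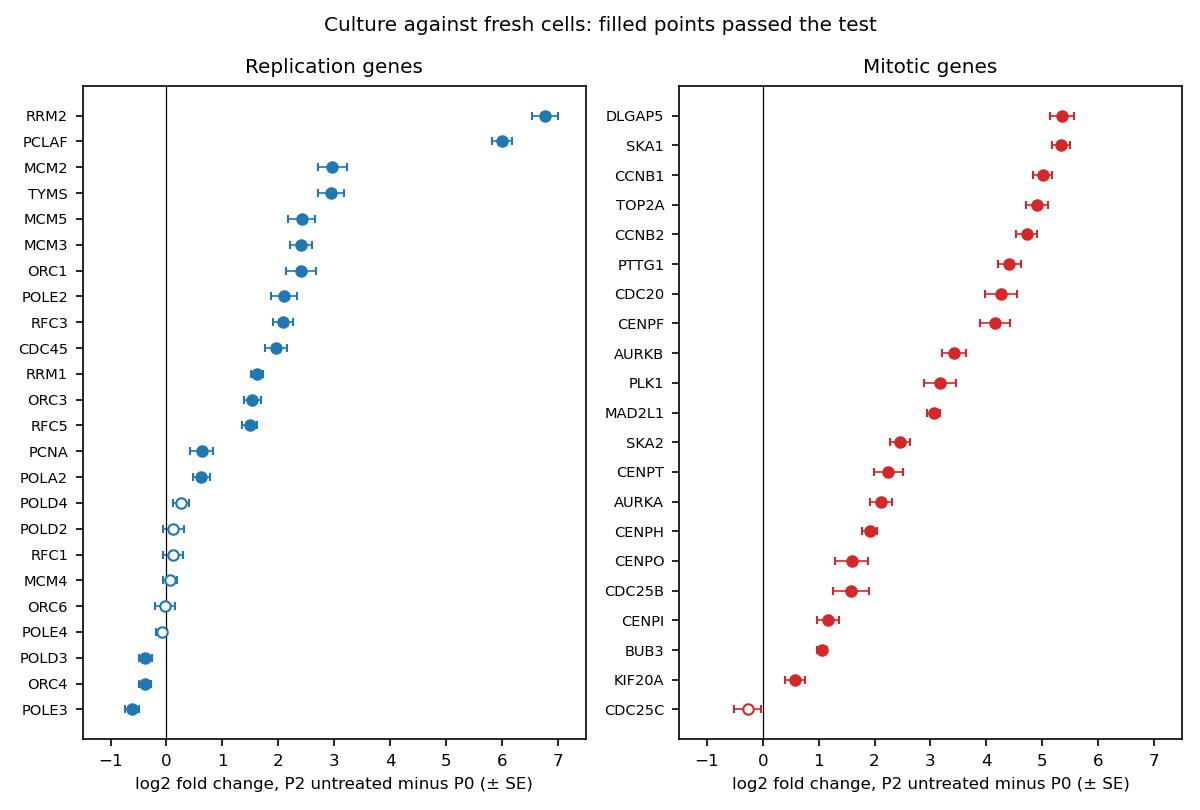
Log2 difference of untreated P2 minus P0 cells (x axis, ± SE, 3 arrays each) for 24 replication genes (left) and 21 mitotic genes (right), with filled points for genes that passed the test. Mitotic genes lie above 0 except CDC25C, while 9 replication genes lie near or below 0, and the points of RRM2, POLE2, DLGAP5, SKA1, CENPT and KIF20A are fitted differences against a P0 mean at the level of the reporter controls.

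Mitotic genes rose in every role. Among 7 kinases, cyclins and phosphatases 6 rose, with a median difference of 3.16. CCNB1, the B-type cyclin that activates CDK1 at the entry to mitosis, read 11.59, 11.16 and 11.51 in untreated P2 cells, against 6.57, 6.18 and 6.48 in P0 cells (5.01 ± 0.170, 32.3-fold, adjusted p = 7.36e-10). CCNB2, its close relative, read 9.92, 9.57 and 9.87 in untreated P2 cells, against 5.17, 5.00 and 5.02 in P0 cells (4.72 ± 0.188, 26.4-fold). For both cyclins the P2 arrays stood clear of the P0 arrays.

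AURKA, the Aurora kinase of the spindle poles, read 8.92, 8.46 and 8.63 in untreated P2 cells and 6.50, 6.59 and 6.56 in P0 cells (2.12 ± 0.203). AURKB, the Aurora kinase of the chromosomal passenger complex, differed by 3.42 ± 0.215, PLK1, the mitotic Polo kinase, by 3.16 ± 0.286, and CDC25B, a phosphatase that activates CDKs, by 1.58 ± 0.318. CDC25C, a phosphatase of the same family, was the exception. It read 4.44, 4.31 and 4.54 in untreated P2 cells and 5.04, 5.03 and 4.04 in P0 cells, overlapping and near the level of the reporter controls (adjusted p = 0.36).

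All 4 checkpoint and anaphase genes rose, with a median difference of 3.66. PTTG1, securin, the inhibitor of separase, read 11.17, 10.80 and 11.17 in untreated P2 cells, against 6.93, 6.59 and 6.38 in P0 cells (4.41 ± 0.210, 21.3-fold). MAD2L1, a spindle checkpoint protein, read 11.47, 11.27 and 11.41 in untreated P2 cells, against 8.37, 8.26 and 8.34 in P0 cells (3.06 ± 0.118, 8.31-fold). CDC20, the activator of the anaphase-promoting complex that this checkpoint holds back, differed by 4.26 ± 0.287, and BUB3, a checkpoint protein that also occurs outside mitosis, by 1.06 ± 0.0963.

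The 3 spindle motor and chromosome genes rose, with a median of 4.91. TOP2A, the topoisomerase that untangles chromosomes, read 10.60, 10.32 and 10.92 in untreated P2 cells, against 5.57, 5.89 and 5.66 in P0 cells (4.91 ± 0.198, 30-fold, adjusted p = 2.79e-09). DLGAP5, a spindle protein, read 9.79, 9.41 and 9.73 in untreated P2 cells, against 3.89, 4.08 and 4.88 in P0 cells, a rise of at least 33.3-fold (adjusted p = 2.48e-09). Its dimmer probe set differed by 2.88, also called. KIF20A, a motor of the central spindle, was dim in both groups and rose at least 1.21-fold, a call lost without untreated replicate 2 (adjusted p = 0.0637).

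All 7 centromere and kinetochore genes rose, with a median of 2.25 and a range of 1.16 to 5.34. SKA1, which couples kinetochores to microtubules, read 8.36, 8.19 and 8.26 in untreated P2 cells, against 2.98, 2.72 and 3.09 in P0 cells, a rise of at least 12.8-fold. Like CENPT, it passed the level filter through the cultured groups. CENPF, a kinetochore protein of G2 and mitosis, differed by 4.15 ± 0.267, and SKA2, CENPH and CENPO, further kinetochore proteins, by 2.45 ± 0.182, 1.92 ± 0.135 and 1.59 ± 0.288. CENPT, a protein that links the centromere to the outer kinetochore, rose at least 2.78-fold, and CENPI by 1.16 ± 0.197.

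Among interphase genes, CCNA2, the cyclin of S phase and G2, read 7.15, 6.58 and 6.88 in untreated P2 cells, against 2.99, 3.17 and 3.28 in P0 cells, a rise of at least 4.88-fold. CCNA2 also passed the level filter through the cultured groups. CDK2, its kinase, rose by 1.16 ± 0.112. CCND2, a D-type cyclin of G1, read 11.90, 12.32 and 11.98 in untreated P2 cells and 12.30, 12.54 and 12.50 in P0 cells. Those groups overlapped, and the fall was small (-0.38 ± 0.134, adjusted p = 0.0268) and lost its call without P0 replicate 2 or 3 or untreated replicate 1 or 3 (adjusted p up to 0.108).

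Among the other 27 genes 14 were called higher and 8 lower, with a median of 0.42. The shares over all probe sets tested were 33.6% higher and 25.8% lower. CDC23, a subunit of the anaphase-promoting complex, rose by 2.25 ± 0.196, and CDK5RAP1 by 1.85 ± 0.124. PLK2, a Polo-like kinase induced by stress and growth signals, read 8.18, 7.08 and 7.61 in untreated P2 cells, against 10.15, 9.80 and 9.79 in P0 cells (-2.29 ± 0.268, 4.9-fold lower, adjusted p = 1.34e-05). PLK3, also a stress-responsive Polo-like kinase, read 6.54, 6.28 and 5.99 in untreated P2 cells, against 8.37, 8.60 and 8.58 in P0 cells (-2.25 ± 0.153, 4.75-fold lower). Both lay below every P0 array, which held for 28.3% of all probe sets tested, whereas PLK1 lay above. KIF5C, a transport motor known from neurons, fell by 1.91 on the log2 scale, and KIF21A, a kinesin that restrains microtubule growth, by 1.15.

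Passage, plastic, serum and time since digestion all differ between P2 and P0 cells and cannot be told apart. Macrophage markers moved with the same contrast, in which 33.6% of all probe sets tested were called higher and 25.8% lower. Of 16 measured, 13 fell and 0 rose, with a median of -2.20, and the log2 of their summed level was 10.60 to 11.61 in untreated P2 cells and 13.75 to 14.34 in P0 cells. CD163, which marks macrophages, averaged 5.41 in untreated P2 cells and 10.95 in P0 cells. Immediate-early genes fell in 14 of 15 cases, with summed levels of 13.66 to 13.87 in untreated P2 cells and 17.00 to 17.16 in P0 cells. Of 15 endothelial markers 0 rose and 3 fell, with summed levels of 10.28 to 12.61 in untreated P2 cells and 11.76 to 12.13 in P0 cells. The median of their differences was 0.004. Their median level was 5.52 to 6.93 in the untreated P2 arrays and 7.10 to 7.55 in the P0 arrays. CD3G, the lymphocyte marker that could be measured, averaged 3.75 in untreated P2 cells and 4.05 in P0 cells. Their part in the result was not tested.

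Genes of the same pathway outside the members were also mostly higher. Of 47 measured further proliferation genes 42 rose and 2 fell, beside 33.6% and 25.8% of all probe sets tested, with a median difference of 1.46. The largest rises that were above the controls in both groups were MELK, a mitotic kinase (5.31 ± 0.227), CDCA3, a cell division protein (4.62 ± 0.276), and MYBL2, a transcription factor of proliferating cells (4.39 ± 0.214). WEE1, the kinase that holds CDK1 inactive (-1.84 ± 0.181), and GMNN, geminin, the inhibitor of relicensing (-0.74 ± 0.159), were lower. Of 18 measured inhibitors and quiescence genes 15 fell and 1 rose, with a median of -1.65. BTG2, an antiproliferative factor, read 8.73, 9.24 and 8.62 in untreated P2 cells, against 14.38, 14.45 and 14.07 in P0 cells (-5.43 ± 0.172). BTG2 is also an immediate-early stress gene, and so are GADD45B (-4.05 ± 0.181) and GADD45G (-3.42 ± 0.309). The CDK inhibitors CDKN1A (-1.61 ± 0.126) and CDKN1B (-1.39 ± 0.204) fell as well, while CDKN2D rose by 0.67 ± 0.170.

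TGF-β1 for 8 h changed few members. The untreated P2 arrays serve in both TGF-β1 comparisons and in the one with P0 cells. Against untreated P2 cells 4 of the 75 genes rose and 1 fell, where 2.53% of all probe sets were called higher and 2.53% lower. Of the 21 mitotic genes 0 were called by limma (1 at an unadjusted p under 0.05, beside 17.4% of all probe sets, and smallest adjusted p = 0.26 for CDC25B), with a median log2 difference of -0.09. Of the 24 replication genes 1 rose and 0 fell, and 20 had a negative difference, with a median of -0.17 beside -0.01 over all probe sets tested.

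ORC4 was the replication gene that rose. It read 10.28, 10.37 and 10.47 at 8 h, against 9.80, 9.77 and 9.61 in untreated P2 cells (0.65 ± 0.104, 1.57-fold, adjusted p = 0.00596), and stood above all untreated arrays. Its second probe set differed by 0.42 and was not called. CDK7, the kinase of the general transcription factor TFIIH that also activates other CDKs, read 9.10, 9.04 and 8.87 at 8 h, against 8.39, 8.62 and 8.32 in untreated P2 cells (0.56 ± 0.112, adjusted p = 0.0156). CDK2AP1, a CDK2-associated protein, read 13.14, 13.03 and 13.23 at 8 h and 12.70, 12.77 and 12.70 in untreated P2 cells (0.41 ± 0.0981, adjusted p = 0.0324).

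The stress-responsive Polo-like kinases moved in opposite directions. PLK3 read 6.89, 7.14 and 6.76 at 8 h, against 6.54, 6.28 and 5.99 in untreated P2 cells (0.66 ± 0.153, adjusted p = 0.0287). PLK2 read 6.89, 6.14 and 6.48 at 8 h, against 8.18, 7.08 and 7.61 in untreated P2 cells (-1.12 ± 0.268, 2.17-fold lower, adjusted p = 0.0337). In both genes the 8 h and untreated arrays did not overlap, which held with 8 h higher for 12.8% and with 8 h lower for 12.7% of all probe sets tested.

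The P2 groups were also fitted with replicate number as a block, since same-numbered P2 arrays deviated together. In that fit of 9 P2 arrays all 5 calls remained, and CDC20 (-0.57 ± 0.117, adjusted p = 0.0211), CDC25B (-0.73 ± 0.151, adjusted p = 0.0217) and MCM3 (-0.35 ± 0.082, adjusted p = 0.0325) were also called lower at 8 h. The share of all probe sets called was not tallied for that fit, nor for the fits with fewer arrays that follow. ORC4 was called in all 6 fits that left out 1 array, and 1 to 3 genes were called higher and 0 or 1 lower. PLK2 lost its call without untreated replicate 1 or 3 or 8 h replicate 2 or 3 (adjusted p up to 0.131). CDK7 lost its call without untreated replicate 1 or 3 or 8 h replicate 1 or 2, PLK3 without untreated replicate 2 or 3 or 8 h replicate 1 or 2, and CDK2AP1 in each of the 6 fits, with adjusted p-values up to 0.0736, 0.117 and 0.127. Without the arrays numbered 3 of all groups, 0 members were called at 8 h, and in a fit of only the 8 h and untreated P2 arrays 1 was called higher and 0 lower.

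After 24 h of TGF-β1 a minority of genes in both classes was called lower than in untreated P2 cells, and most other genes had negative values without a call. Of the 24 replication genes 4 fell and 0 rose, with a median log2 difference of -0.36 and 22 negative values. Of the 21 mitotic genes 4 fell and 0 rose, with a median of -0.42 and 21 negative values. The 2 subunits of the anaphase-promoting complex, placed outside that class, differed by 0.05 and 0.17 and were not called. At an unadjusted p under 0.05 there were 10 replication and 13 mitotic genes. Over all probe sets tested, 4.27% were called higher, 4.22% lower and 22.7% had an unadjusted p under 0.05, with a median of 0.01. With replicate number as a block, 8 replication and 9 mitotic genes were called lower, and all 13 member calls of the fit without it remained. The shares above belong to the fit without the block, and no share over all probe sets was tallied with it. In a fit of only the 24 h and untreated P2 arrays, 0 replication genes and 1 mitotic gene were called lower, so that over all 75 genes 1 was called lower in place of 9 (medians -0.36 and -0.42).

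TYMS fell most among the replication genes. It read 10.20, 9.66 and 10.45 in untreated P2 cells, 9.67, 9.39 and 9.94 at 8 h and 8.65, 8.68 and 9.38 at 24 h (24 h minus untreated -1.20 ± 0.232, 2.3-fold lower, adjusted p = 0.00841). RRM1 read 11.06, 10.85 and 10.97 in untreated P2 cells, 10.84, 10.78 and 10.78 at 8 h and 10.36, 10.49 and 10.65 at 24 h (-0.46 ± 0.109, adjusted p = 0.0235). The 24 h arrays of both genes lay below every untreated array, which held for 11.9% of all probe sets tested.

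RRM2 read 10.76, 10.61 and 10.63 in untreated P2 cells, 10.49, 10.50 and 10.49 at 8 h and 9.48, 9.94 and 10.15 at 24 h. Its difference of -0.81 ± 0.234 missed the threshold (adjusted p = 0.0547) and was called with the replicate block (adjusted p = 0.0103). The 24 h arrays stood below all others of the P2 groups.

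At the fork, PCLAF read 11.25, 11.12 and 11.59 in untreated P2 cells, 11.12, 11.23 and 11.29 at 8 h and 10.15, 10.72 and 10.71 at 24 h (-0.80 ± 0.176, 1.74-fold lower, adjusted p = 0.0166). RFC5 read 8.67, 8.47 and 8.47 in untreated P2 cells, 8.17, 8.21 and 8.33 at 8 h and 7.97, 7.80 and 8.26 at 24 h (-0.53 ± 0.135, adjusted p = 0.0326). A dimmer PCLAF probe set differed by -0.12 and was not called. PCNA read 9.92, 10.41 and 10.83 at 24 h, overlapping its untreated arrays, and did not pass (-0.50 ± 0.203, adjusted p = 0.164).

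Of the 8 licensing genes 0 were called by limma without the block, and 3 had an unadjusted p under 0.05. MCM3 read 7.38, 7.04 and 7.63 in untreated P2 cells, 6.97, 6.72 and 7.30 at 8 h and 6.68, 6.56 and 7.01 at 24 h (-0.60 ± 0.203, adjusted p = 0.096). MCM5 read 8.96, 9.07 and 9.18 in untreated P2 cells, 8.76, 8.72 and 8.86 at 8 h and 8.19, 8.22 and 8.94 at 24 h (-0.62 ± 0.243, adjusted p = 0.148). With the block MCM3, MCM5 and MCM2 were called lower, with adjusted p-values of 0.00297, 0.0213 and 0.0276. ORC4 read 10.04, 10.15 and 9.95 at 24 h (0.32 ± 0.104, adjusted p = 0.0824), and it and POLE4 (0.18, adjusted p = 0.323) were the replication genes with positive values.

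**Figure D2:**
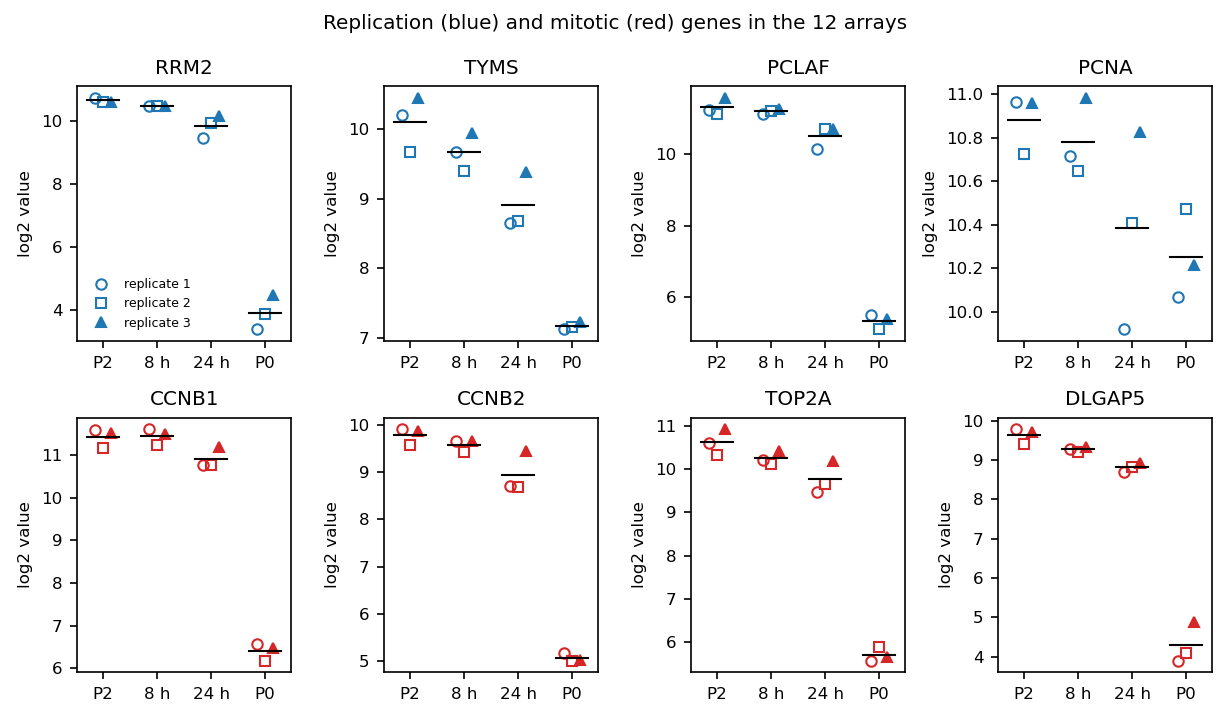
Deposited log2 values (y axes, each panel with its own scale) of 4 replication genes (top) and 4 mitotic genes (bottom) in untreated P2, 8 h TGF-β1, 24 h TGF-β1 and P0 cells, with 1 point per array and bars for group means. All 8 genes are lower on average at 24 h than in untreated P2 cells, and PCNA is the one whose 24 h arrays reach into the range of the P0 arrays.

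Among mitotic genes, CCNB2 read 9.92, 9.57 and 9.87 in untreated P2 cells, 9.66, 9.43 and 9.66 at 8 h and 8.71, 8.68 and 9.45 at 24 h (-0.84 ± 0.188, 1.79-fold lower, adjusted p = 0.0178). TOP2A read 10.60, 10.32 and 10.92 in untreated P2 cells, 10.21, 10.12 and 10.43 at 8 h and 9.48, 9.66 and 10.19 at 24 h (-0.84 ± 0.198, adjusted p = 0.0229). DLGAP5 read 9.79, 9.41 and 9.73 in untreated P2 cells, 9.29, 9.20 and 9.33 at 8 h and 8.69, 8.82 and 8.94 at 24 h (-0.83 ± 0.213, adjusted p = 0.0348). The dimmer DLGAP5 probe set differed by -0.78 and was not called. In each of these genes the 24 h arrays lay below all untreated arrays, and replicate 3 was the highest of them.

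PTTG1 read 11.17, 10.80 and 11.17 in untreated P2 cells, 11.21, 10.82 and 11.05 at 8 h and 10.01, 10.13 and 10.76 at 24 h (-0.75 ± 0.210, adjusted p = 0.0493). It was the fourth mitotic gene called and lay just inside the threshold. CCNB1 read 11.59, 11.16 and 11.51 in untreated P2 cells, 11.61, 11.23 and 11.49 at 8 h and 10.77, 10.76 and 11.19 at 24 h (-0.51 ± 0.170, adjusted p = 0.0881). With the block CCNB1 (adjusted p = 0.0232), CDC20, CDC25B, PLK1 and AURKB were called lower too, with differences of -0.51, -0.94, -1.004, -0.42 and -0.67.

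Of the 7 kinetochore genes 0 were called by limma, with or without the block, and 3 had an unadjusted p under 0.05. SKA1 read 8.36, 8.19 and 8.26 in untreated P2 cells, 8.20, 8.16 and 8.11 at 8 h and 7.53, 7.84 and 8.22 at 24 h (-0.41 ± 0.160, adjusted p = 0.15). Genes of that role had a median of -0.41 and a range of -0.65 to -0.12. MAD2L1 read 11.47, 11.27 and 11.41 in untreated P2 cells, 11.55, 11.45 and 11.38 at 8 h and 10.82, 11.13 and 11.17 at 24 h (-0.34 ± 0.118, adjusted p = 0.104). AURKA read 8.92, 8.46 and 8.63 in untreated P2 cells, 8.65, 8.29 and 8.81 at 8 h and 8.09, 7.98 and 8.75 at 24 h (-0.40 ± 0.203, adjusted p = 0.279), and CCNA2 read 7.15, 6.58 and 6.88 in untreated P2 cells, 6.67, 6.62 and 6.85 at 8 h and 5.91, 6.03 and 6.96 at 24 h (-0.57 ± 0.241, adjusted p = 0.184). For AURKA and CCNA2 replicate 3 at 24 h reached the untreated range.

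**Figure D3:**
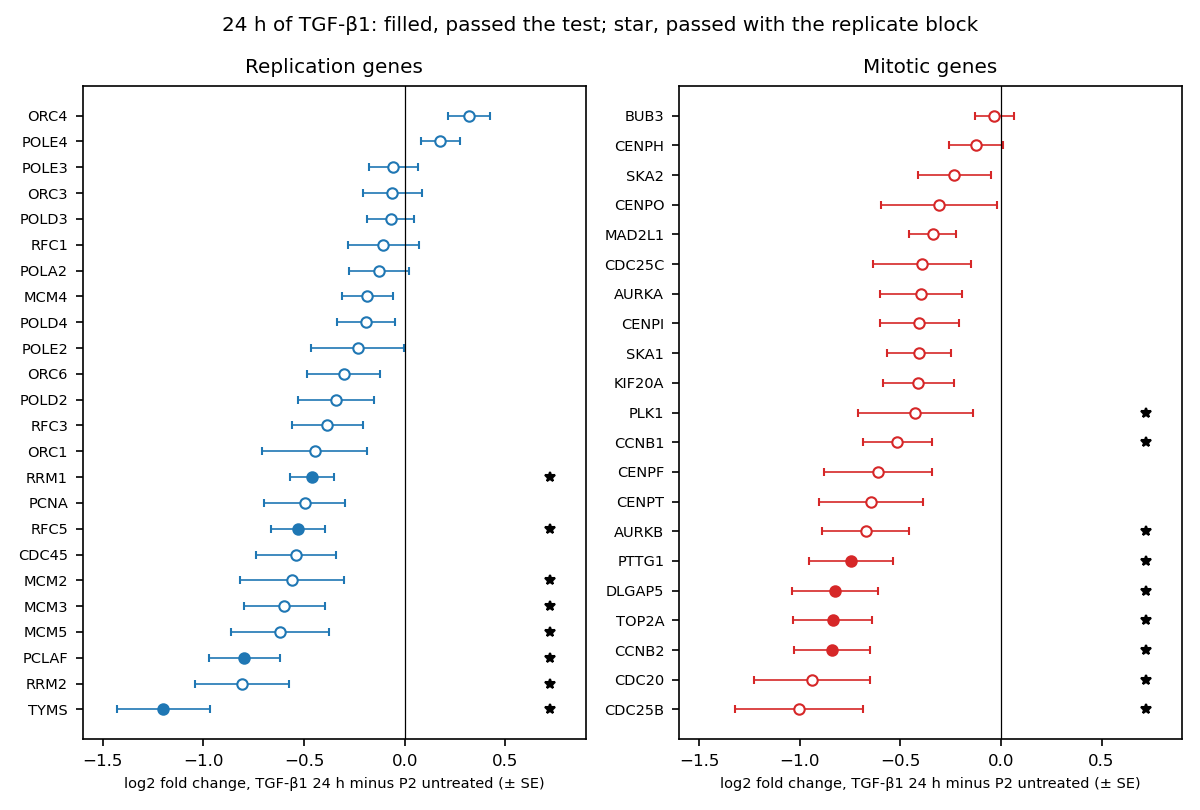
Log2 difference of 24 h TGF-β1 minus untreated P2 cells (x axis, ± SE, 3 arrays each) for 24 replication genes (left) and 21 mitotic genes (right), with filled points for calls of the fit without a block and a star at the right for calls with replicate number as a block. The filled points are 4 and 4, the stars 8 and 9, and ORC4 and POLE4 are the genes above 0. The share of all probe sets called with the block was not tallied.

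The 27 genes outside the replication, mitotic and interphase classes had positive values more often than negative ones at 24 h, 20 against 7. Of the 3 interphase genes 1 was positive and 2 were negative. Among all 17638 probe sets tested 9031 were positive and 8601 negative. Of the 27 genes 4 rose and 1 fell at 24 h, with a median of 0.11, beside 4.27% and 4.22% of all probe sets. PLK3 read 6.54, 6.28 and 5.99 in untreated P2 cells, 6.89, 7.14 and 6.76 at 8 h and 7.43, 7.33 and 7.18 at 24 h (1.04 ± 0.153, 2.06-fold, adjusted p = 0.00187). KIF21A read 5.07, 5.20 and 4.55 in untreated P2 cells, 5.24, 5.79 and 5.48 at 8 h and 5.68, 5.94 and 5.97 at 24 h (0.92 ± 0.181, adjusted p = 0.0089). Both genes lay above all untreated arrays at 24 h, as did 13.4% of all probe sets tested, and below all P0 arrays.

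CDK7 read 9.02, 9.08 and 9.03 at 24 h, against 8.39, 8.62 and 8.32 in untreated P2 cells (0.60 ± 0.112, adjusted p = 0.0071). CDK2AP1 read 13.21, 13.19 and 13.33 at 24 h, against 12.70, 12.77 and 12.70 in untreated P2 cells (0.52 ± 0.0981, adjusted p = 0.0073). PLK2 read 6.92, 6.56 and 6.35 at 24 h, against 8.18, 7.08 and 7.61 in untreated P2 cells (-1.01 ± 0.268, adjusted p = 0.0391). CDK7 and CDK2AP1 were thus higher at both times than in untreated cells, and PLK2 lower at both. The 24 h call of PLK2 was lost without untreated replicate 1 or 3 or 24 h replicate 2 or 3 (adjusted p up to 0.13).

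**Figure D4:**
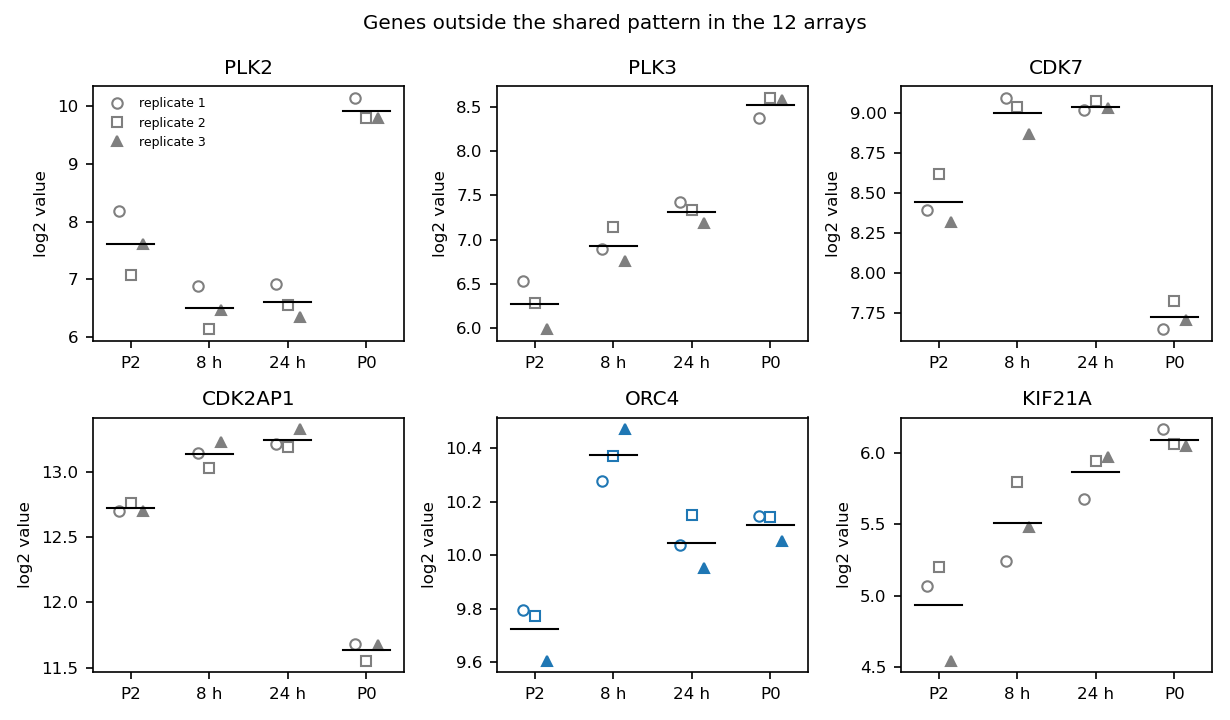
Deposited log2 values (y axes, each panel with its own scale) of PLK2, PLK3, CDK7, CDK2AP1, ORC4 and KIF21A in untreated P2, 8 h TGF-β1, 24 h TGF-β1 and P0 cells, with 1 point per array and bars for group means. PLK2 is below all untreated P2 arrays at both times, and the other 5 genes have higher means at both times than in untreated P2 cells.

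The size of the 24 h difference varied between the replicate numbers. Paired by number, the median difference of the 24 replication genes was -0.67, -0.34 and -0.12 for replicates 1, 2 and 3, and that of the 21 mitotic genes was -0.82, -0.51 and -0.28. The share of all probe sets called was not tallied for fits with arrays left out. Without 24 h replicate 3, 10 replication and 11 mitotic genes were called lower. Without untreated replicate 1 or 3, or 24 h replicate 1 or 2, 0 mitotic and 1 or 2 replication genes were, and without untreated replicate 2, 6 mitotic and 3 replication genes were. TYMS, PLK3, CDK7, CDK2AP1 and KIF21A were the 5 of 13 genes called in all 6 of these fits. CCNB2, TOP2A, PTTG1 and RRM1 lost their calls without untreated replicate 1 or 3 or 24 h replicate 1 or 2, with adjusted p-values up to 0.0721, 0.0975, 0.16 and 0.0921. PCLAF lost its call without untreated replicate 3 or 24 h replicate 1 (adjusted p up to 0.0733), while DLGAP5 and RFC5 kept theirs in 1 of the 6 fits each. Without the arrays numbered 3 of all groups, 5 replication, 6 mitotic and 1 interphase genes fell, and 1 gene rose.

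Endothelial markers also split by replicate number. The log2 of their summed level was 12.17, 12.61 and 10.28 in untreated P2 cells, 12.03, 12.40 and 10.70 at 8 h and 11.81, 11.95 and 10.83 at 24 h, so that the arrays numbered 3 were lowest in each group. Of 15 measured, 1 rose (ERG, an endothelial transcription factor) and 0 fell at 24 h against untreated P2 cells. The median difference of the list was -0.21. Among all probe sets tested, 4.27% were called higher and 4.22% lower. Of 16 macrophage markers 0 rose and 1 fell, with summed levels of 10.33 to 11.17 at 24 h and 10.60 to 11.61 in untreated P2 cells. The part of these cells in the results was not tested.

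No member was called between 24 h and 8 h by limma, where 0.232% of all probe sets were called, and 17 of 75 genes had an unadjusted p under 0.05, beside 9.27% of all probe sets. The median difference was -0.18 for replication genes, 18 of 24 of them negative, and -0.37 for mitotic genes, all 21 negative. PCLAF had the smallest adjusted p (-0.69 ± 0.176, adjusted p = 0.204), and MAD2L1 the smallest among mitotic genes (-0.42 ± 0.118, adjusted p = 0.256). With the replicate block TYMS was called lower at 24 h (-0.76 ± 0.124, adjusted p = 0.0282), and 0 mitotic genes were.

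Class medians were set side by side over the 12 arrays. After each gene was centred on its 12-array mean, the median mitotic gene stood at 0.91, 0.71 and 1.00 in the untreated P2 arrays, 0.88, 0.58 and 0.98 at 8 h, 0.24, 0.24 and 0.78 at 24 h and -2.18, -2.06 and -1.65 in the P0 arrays. The median replication gene stood at 0.53, 0.43 and 0.52 in the untreated P2 arrays, 0.27, 0.28 and 0.39 at 8 h, -0.04, 0.04 and 0.28 at 24 h and -0.91, -0.87 and -0.86 in the P0 arrays. In both classes the P0 arrays lay lowest, and no test was made between the classes. Among genes over log2 4 in at least 2 P0 arrays, 18 of 19 mitotic genes rose in untreated P2 cells with a median of 3.06, and 14 of 23 replication genes with a median of 1.49.

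**Figure D5:**
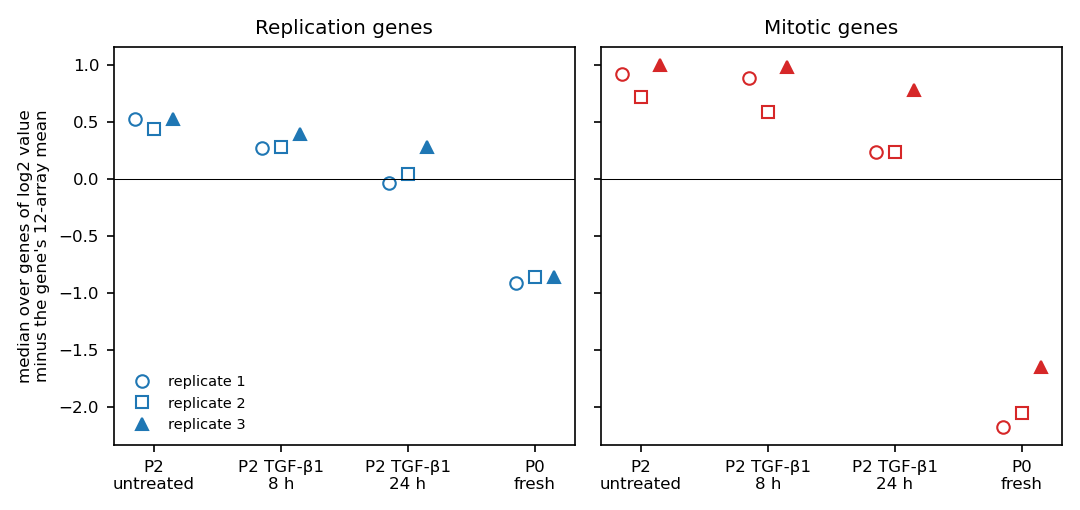
Median over the 24 replication genes (left) and 21 mitotic genes (right) of log2 value minus the gene's 12-array mean (y axis), with 1 point per array, for untreated P2, 8 h TGF-β1, 24 h TGF-β1 and P0 cells. The P0 arrays lie at -0.91 to -0.86 for replication and -2.18 to -1.65 for mitotic genes, and replicate 3 is the highest of the 24 h arrays.

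In most genes of both classes, cells given TGF-β1 for 24 h still carried more transcript than P0 cells, by array values without a fit. All 3 arrays at 24 h stood above all P0 arrays in 14 of 24 replication and 18 of 21 mitotic genes, beside 37.2% of all probe sets tested. These genes include RRM2, SKA1 and CENPT, which passed the level filter through the cultured groups, and no count without them was made. All 3 stood below all P0 arrays in 2 replication and 0 mitotic genes, and in 4998 of 17638 probe sets tested. Of the 9 members that fell at 24 h, 8 stood above all P0 arrays, and PLK2 lay below all of them. CCNB2, for example, read 8.71, 8.68 and 9.45 at 24 h, against 5.17, 5.00 and 5.02 in P0 cells.

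A minority of the further proliferation genes was called under TGF-β1 without the block. At 8 h 0 of 47 were called by limma (4 at an unadjusted p under 0.05, beside 17.4% of all probe sets, median -0.15), and with the replicate block 1 rose and 3 fell. At 24 h 8 fell and 0 rose, with a median of -0.39, where 4.22% of all probe sets were called lower and 4.27% higher. With the block 23 fell, a fit for which no share over all probe sets was tallied. STMN1, a regulator of microtubules (-0.93 ± 0.171), CDCA3 (-0.99 ± 0.276), NUF2 of the outer kinetochore (-0.78 ± 0.216) and RACGAP1 of the central spindle (-0.74 ± 0.179) had the largest falls.

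The 18 inhibitors and quiescence genes had mixed calls. At 8 h 1 rose and 4 fell, and at 24 h 3 rose and 2 fell, which became 2 and 6 at 8 h and 4 and 5 at 24 h with the block. Without the block, 2.53% of all probe sets were called higher and 2.53% lower at 8 h. At 24 h these shares were 4.27% and 4.22%. GADD45B, a stress gene induced by TGF-β, was higher at 8 h (1.08 ± 0.181) and at 24 h (0.98 ± 0.181). BTG2 (0.66 ± 0.172) and FOXO1, a transcription factor of resting cells (0.49 ± 0.134), rose at 24 h, while RGCC, a regulator of the cell cycle (-1.65 ± 0.215), and SESN1, a stress-induced sestrin (-1.47 ± 0.299), fell. CDKN1A read 11.39, 11.24 and 11.27 at 24 h and 11.15, 11.38 and 10.97 in untreated P2 cells, overlapping and not called, and CDKN1B was not called either.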

How the data were processed

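RNA of 12 samples, 4 groups of 3 biological replicates, was hybridised to Affymetrix pig arrays. What the authors deposited is a log2 value for each probe set, made with GCRMA per the submitters' processing notes. GCRMA's version, scan dates and batches: not given in the sources used here. No depth applies to arrays, and their number limits the precision (median SE 0.159).

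The values were used as deposited, with the 64 reporter controls left out. With limma 3.58.1 (R 4.3.3), 4 group means were estimated from the 12 arrays (lmFit and eBayes, two-sided) on 17638 probe sets over log2 4 in at least 3 arrays, and p-values were adjusted over all of them by Benjamini-Hochberg within each of 4 comparisons. The script was tested on simulated data with known changes. A fold against a group mean under 4.58 is a lower bound.

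Replicate numbers in the titles pair the P2 arrays: after group means were removed, the 9 pairs of P2 arrays from 2 groups that share a number had correlations between 0.348 and 0.679. Pairs with unlike numbers reached 0.0796 at most, and P0 arrays with P2 arrays of their number lay between -0.0916 and 0.0158. The block was therefore fitted over the 9 P2 arrays.

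Members, roles and lists were chosen with earlier results of these data known. Values per array were given for a fixed panel of 22 genes (16 measured), up to 3 called members per class with the largest change, and up to 4 against their class. From other lists, up to 4 called genes were eligible. Other members are named as part of the set, and dim list genes were passed over. Alternatives were quantile normalization, leaving out the filter or raising it to log2 6, eBayes with trend and robust, a fit of the 2 groups compared, replicate blocks, values raised to the control level, every member probe set and leaving out each array. Leaving out the arrays numbered 3 was chosen after seeing the data. All 100 member Entrez IDs were found in RefSeq. Sequences and promoters were not analysed here.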

Additional observations from a re-analysis of the deposited data

How the results depend on the processing

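In P2 minus P0 cells, the median of replication genes was 1.12 and that of mitotic genes 2.66 with every member probe set, and the mitotic median was 3.29 with the stricter filter. CDC25C made 1 mitotic gene called lower with values raised to the control level, or without the arrays numbered 3, and 0 or 1 were when 1 array was left out.
At 8 h (4 genes higher, 1 lower), 1 was higher and 0 lower in the fit of the 2 groups, and 0 and 0 without the arrays numbered 3. 0 were lower with values raised to the control level, 2 with a replicate block over 12 arrays (1 mitotic) and 4 with the replicate block over 9 P2 arrays (1 replication, 2 mitotic). 0 replication genes were higher without the arrays numbered 3. With 1 array left out, 1 to 3 were higher and 0 to 1 lower.
At 24 h (4 higher, 9 lower), 1 was lower in the fit of the 2 groups (0 replication, 1 mitotic), 15 with the 12-array replicate block (7 and 7) and 19 with the 9-array replicate block (8 and 9). 7 were higher with values raised to the control level (1 replication), and 1 without the arrays numbered 3. With 1 array left out, 1 to 22 were lower (replication 1 to 10, mitotic 0 to 11), and the replication median ranged from -0.55 to -0.23.
Between 24 h and 8 h, 1 gene (replication) was lower with the 9-array replicate block, and 0 to 1 (mitotic 0 to 1) with 1 array left out. In P2 minus P0 cells 55 of 63 calls held in all 6 fits with 1 array left out, 5 of 13 at 24 h and 1 of 5 at 8 h. No called value changed sign, and the cause of these shifts was not tested. Shares over all probe sets were not tallied for the alternative fits, so their counts of calls have no background beside them. Signal over background limits the 7 genes with P0 means at the control level.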
